A study of Rattus norvegicus with 6 samples.

Results

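The miR-29 family is described here across 6 small RNA libraries from rat trigeminal ganglion. Its members were chosen by name, as every row of the count table whose name carries the stem miR-29a, miR-29b or miR-29c, and 6 of the 650 mature miRNA rows met this rule. They are rno-miR-29a-3p, rno-miR-29b-3p and rno-miR-29c-3p, and the opposite strands rno-miR-29a-5p, rno-miR-29b-5p and rno-miR-29c-5p. A filter on low counts kept 5 of these 6 rows and 463 of all 650. rno-miR-29a-5p, at 2 to 7 reads per library, was left out of the tests.

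The CCI-ION group held 3 libraries made 14 days after constriction of the left infraorbital nerve, a sensory nerve of the face, with 2 loose silk ligatures; the ganglion of that same side was taken. The sham group held 3 libraries taken at the same time after the nerve had only been exposed. All were Sprague-Dawley rats aged 8 to 10 weeks, and no transgene or drug is named in the labels. The ganglion is sampled whole, so neurons, glia, fibroblasts, vessels and blood cells contribute together. The labels do not state that every library is a separate rat, so the spread that the p-values use could be technical in part.

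A miRNA is cut from a hairpin as a pair of strands, of which the guide is kept to silence messenger RNAs and the passenger is mostly discarded. In this family the 3p strand is the guide. miR-29 is best known for silencing collagen, elastin and other extracellular matrix genes, so that it falls in fibrosis in several tissues, and in mouse neurons it is known to hold back proapoptotic BH3-only genes as they mature. The 3 guides share bases 2 to 8, the seed, which pairs with UGGUGCU in target messages.

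The guide sequences are shown because the family is defined by the shared seed, in capitals, and its members differ by few other bases (RefSeq, build GRCr8, equal to the deposited sequences apart from U in place of T).
rno-miR-29a-3p: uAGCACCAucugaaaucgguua
rno-miR-29b-3p: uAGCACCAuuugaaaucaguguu
rno-miR-29c-3p: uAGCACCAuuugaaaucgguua
No other row of the 650 had this seed. Counting from 1 at the 5′ end, miR-29c-3p differs from miR-29a-3p at 1 of 22 bases (C10U), so reads of either could have been assigned to the other and both rows are uncertain. The miR-29c-3p row is the more exposed, since it held only 6.24 to 9.21 reads per 1000 miR-29a-3p reads. miR-29b-3p differs from miR-29a-3p at 4 of the 22 bases compared (C10U, G18A, U21G and A22U) and from miR-29c-3p at 3. It ends in AGUGUU, which is known from human cells as a signal that draws miR-29b into the nucleus. The same 6 letters end 2 of the 650 deposited sequences (0.308%), the other being miR-92b-5p, and stand anywhere in 8 (1.23%).

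The family is made from 4 hairpins in 2 clusters. Mir29a and Mir29b1 lie 291 bases apart on the minus strand (GRCr8 chr4:60617955-60618042 and chr4:60618334-60618414), and Mir29b2 and Mir29c lie 447 bases apart on the plus strand (chr13:109098831-109098911 and chr13:109099359-109099446). The mature miR-29b-3p is identical from both clusters, so its reads cannot be divided between them. The deposited miR-29b-5p sequence is the 5p strand of Mir29b2, and the 5p strand of Mir29b1 was not analysed here. The hairpins of Mir29a and Mir29c are shown because they mark the extremes of strand use in the reads, with the 5p strand first and the 3p strand second, both in capitals.
Mir29a: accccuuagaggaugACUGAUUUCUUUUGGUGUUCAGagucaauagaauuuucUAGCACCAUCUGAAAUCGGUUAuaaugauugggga
Mir29c: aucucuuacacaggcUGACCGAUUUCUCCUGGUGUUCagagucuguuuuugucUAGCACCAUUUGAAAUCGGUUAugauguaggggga

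Depth ranged from 6420434 to 11014970 miRNA counts in CCI-ION and from 10084327 to 12560545 in sham. Levels are TMM-scaled CPM (counts per 1000000 miRNA counts), where TMM aligns libraries on the bulk of their miRNAs. The deposited RPM values are instead reads per 1000000, scaled to a larger library total whose makeup is not stated. miRNA counts made up 45.4%, 45.8% and 55.8% of that total in CCI-ION libraries 1 to 3, and 52.3%, 66.6% and 66.6% in sham libraries 1 to 3. With these totals the median log2 fold change of all tested miRNAs was -0.34, beside 0.01 on the TMM scale, and both scales are given below. The labels number the libraries 1 to 3 in each group and state no pairing. Libraries with the same number deviated alike in these counts, so values are also compared within these 3 pairs. The pairs were thus taken from the same counts that the fits with a replicate block test. The 2 libraries numbered 1 had larger totals behind the RPM (24259518 in CCI-ION and 24025572 in sham) than the other 4 (13793797 to 15228984).

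miR-29a-3p was the most abundant member in every library. It averaged 3408 ± 684 CPM in CCI-ION and 3603 ± 313 in sham (SD, n = 3 each), ranked between 33rd and 47th of 650 rows, and held 95.4% to 96.3% of the family's reads. miR-29b-3p stood at 102.6 ± 27.4 CPM in CCI-ION and 107.6 ± 16.5 in sham. miR-29c-3p stood at 23.5 ± 5.55 CPM in CCI-ION and 31.2 ± 4.05 in sham. The spreads of these 3 guides do not touch, with the lowest miR-29a-3p value at 2696 CPM, miR-29b-3p between 79.4 and 132.9 CPM, and miR-29c-3p at most 35.2 CPM. miR-29c-5p followed at 14.2 ± 1.92 CPM in CCI-ION and 17.3 ± 2.26 in sham. It was below miR-29c-3p in 6 of 6 libraries although their ranges overlap. miR-29b-5p averaged 1.75 ± 0.733 CPM in CCI-ION and 1.59 ± 0.432 in sham. It overlapped with miR-29a-5p, at 0.567 ± 0.497 CPM in CCI-ION and 0.580 ± 0.115 in sham. All 6 sequences are 22 or 23 bases long. Adapter ligation favours some miRNAs over others and levels of different miRNAs are only roughly comparable.

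**Figure D1:**
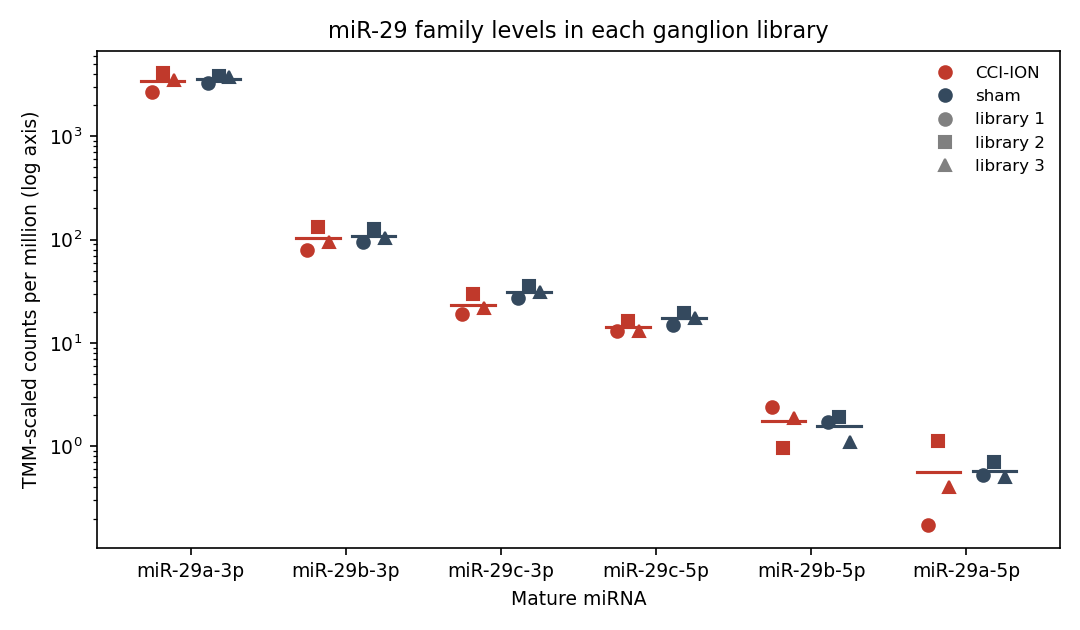
TMM-scaled CPM (log axis) of the 6 miR-29 rows in each library, with CCI-ION in red at the left and sham in dark blue at the right of each pair. Symbols mark the library number and bars the group mean; miR-29a-3p lies between 2696 and 4059 CPM, far above the next member, miR-29b-3p, at 79.4 to 132.9 CPM.

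The ratio of 5p to 3p reads differed widely between the 3 hairpin types. Ligation bias and reads exchanged between miR-29a-3p and miR-29c-3p could move these ratios. Neither was analysed, so the ratios describe reads and not how much of each strand the cells kept. For Mir29c the passenger was below the guide in every library but of the same order, with 68.5, 55.1 and 60.2 miR-29c-5p reads per 100 miR-29c-3p reads in CCI-ION libraries 1 to 3, and 55.4, 55.5 and 55.4 in sham libraries 1 to 3. The groups overlapped, and each library's exact 95% counting interval reached at least from 55.3 to 66.0. These intervals cover counting error only, and a difference between the groups was not tested. For miR-29b the deposited 5p strand came to 0.726 to 3.04 reads per 100 guide reads in CCI-ION and 1.08 to 1.84 in sham, although the guide count also holds reads from Mir29b1. For Mir29a the passenger was almost absent, at 0.0640, 0.277 and 0.116 reads per 1000 guide reads in CCI-ION and 0.162, 0.186 and 0.134 in sham. The 5p strands share no seed, reading CUGAUUU in miR-29a-5p, UGGUUUC in miR-29b-5p and GACCGAU in miR-29c-5p.

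**Figure D2:**
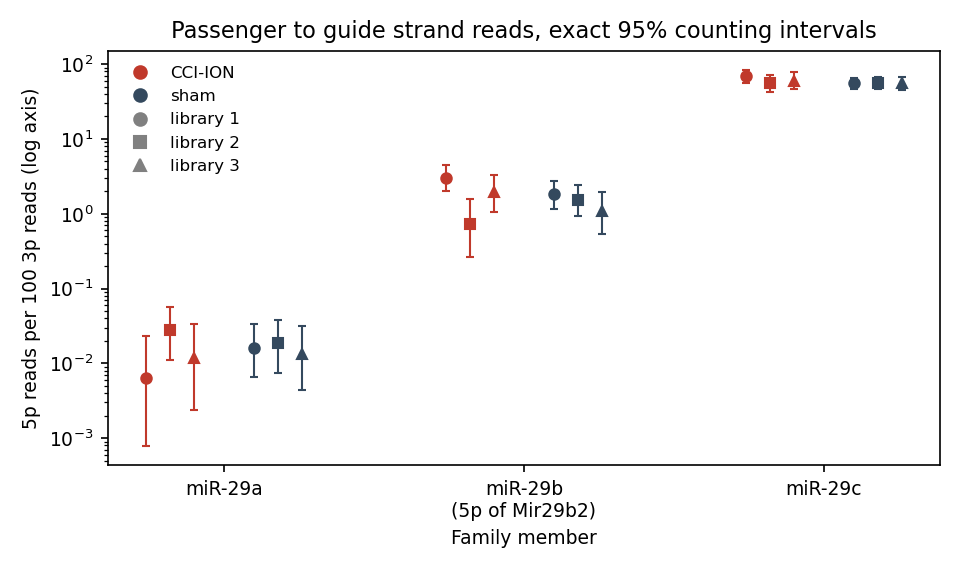
Reads of the 5p strand per 100 reads of the 3p strand in each library (log axis), with CCI-ION at the left of sham for each member and bars giving exact 95% counting intervals. miR-29c stands at 55.1 to 68.5, far above miR-29b and miR-29a, and the groups overlap for every member.

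Whether nerve constriction changed the family was asked by comparing CCI-ION with sham. No member passed the test without the library numbers as pairs. edgeR's quasi-likelihood test called 0 of the 5 tested rows, and 3 of all 463 (0.648%), with 0 of 5 and 46 of 463 at an unadjusted p below 0.05. DESeq2 also called 0 of 5, and 9 of 463. With the replicate number as a block edgeR again called 0 of 5, against 54 of 463 (11.7%), of which 26 were lower (5.62%) and 28 higher (6.05%). miR-29a-3p and miR-29b-3p lay near no change on the TMM scale. miR-29c-3p lay lower in CCI-ION, but the difference did not pass adjustment.

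miR-29a-3p stood at 2696, 4059 and 3470 CPM in CCI-ION libraries 1 to 3, against 3245, 3823 and 3740 CPM in sham libraries 1 to 3. The CCI-ION values bracket the sham values, with library 1 lowest and library 2 highest in each group. The log2 fold change was -0.08 ± 0.17 (SE, edgeR adjusted p = 0.947), and its 95% interval runs from 0.712 to 1.26 times the sham level. Within pairs the values were lower, higher and lower (-0.27, 0.09 and -0.11). With the block the interval narrowed to 0.815 to 1.07 times (log2 fold change -0.10 ± 0.10, edgeR adjusted p = 0.618).

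miR-29b-3p, from both clusters, had 79.4, 132.9 and 95.6 CPM in CCI-ION, against 94.1, 126.0 and 102.6 CPM in sham. The groups overlapped, again with library 1 lowest and library 2 highest in both. The log2 fold change of -0.07 ± 0.22 (edgeR adjusted p = 0.976) leaves a 95% interval of 0.662 to 1.37 times the sham level. The pairs gave -0.25, 0.08 and -0.10, nearly the values of miR-29a-3p. Both directions turned positive under upper quartile scaling (0.00 for miR-29a-3p and 0.02 for miR-29b-3p) and without CCI-ION library 1 (0.06 and 0.09).

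miR-29c-3p, from the chr13 cluster, had 19.1, 29.8 and 21.7 CPM in CCI-ION, against 27.1, 35.2 and 31.3 CPM in sham. CCI-ION library 2 exceeded sham library 1, so the groups overlapped, but the CCI-ION library was the lower in 3 of 3 pairs (-0.50, -0.24 and -0.53). Over all tested miRNAs, 109 of 463 (23.5%) were lower in every pair. The log2 fold change was -0.41 ± 0.21 (edgeR unadjusted p = 0.0882, adjusted p = 0.601), with a 95% interval of 0.534 to 1.06 times the sham level. With the block it was -0.43 ± 0.16, with an unadjusted p of 0.00881 and an edgeR adjusted p of 0.0669. Without the libraries numbered 1, 2 or 3 the block gave edgeR adjusted p-values of 0.223, 0.146 and 0.483. The miR-29c-3p value stayed negative in all 21 alternatives that kept it as its own row. It ran from -0.78 with the totals behind the RPM to -0.28 without CCI-ION library 1. These values rest on few reads, 222, 185 and 161 in CCI-ION and 361, 346 and 312 in sham.

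Its passenger miR-29c-5p had 13.1, 16.4 and 13.0 CPM in CCI-ION, against 15.02, 19.5 and 17.4 CPM in sham. It too was lower in 3 of 3 pairs, with overlapping groups (log2 fold change -0.29 ± 0.19, edgeR adjusted p = 0.776, and 0.360 with the block). Among all tested miRNAs, 33 of 463 (7.13%) were lower in CCI-ION with no overlap between groups in CPM, and no miR-29 row was among them. miR-29b-5p, the passenger of the neighbouring Mir29b2, had only 6 to 28 reads in CCI-ION and 11 to 23 in sham. Its log2 fold change was 0.18 ± 0.39 (edgeR adjusted p = 0.947), and its 95% interval of 0.598 to 2.15 times shows how little this depth can resolve.

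Ratios between the guides do not depend on how libraries are scaled. They separated the groups where miR-29c-3p was the numerator and not for miR-29b-3p over miR-29a-3p. miR-29b-3p came to 29.5, 32.7 and 27.6 reads per 1000 miR-29a-3p reads in CCI-ION libraries 1 to 3, against 29.01, 33.0 and 27.4 in sham libraries 1 to 3. The mean was 29.9 ± 2.62 in CCI-ION and 29.8 ± 2.85 in sham (SD, n = 3 each), and the ratio went by library number and not by group, with pairs at 1.02, 0.993 and 1.00 times. miR-29c-3p came to 7.10, 7.33 and 6.24 reads per 1000 miR-29a-3p reads in CCI-ION, against 8.36, 9.21 and 8.37 in sham. Here the groups did not overlap, with means of 6.89 ± 0.575 in CCI-ION and 8.65 ± 0.489 in sham, and pairs at 0.849, 0.796 and 0.745 times.

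Set against miR-29b-3p in place of miR-29a-3p, miR-29c-3p again separated the groups, at 24.1, 22.4 and 22.6 reads per 100 in CCI-ION and 28.8, 27.9 and 30.5 in sham. Both ratios share the miR-29c-3p reads, so they are not independent. Of the 462 other tested miRNAs, 23 (4.98%) had a ratio to miR-29a-3p that was lower in every CCI-ION library than in every sham library. The same count was not made for ratios to miR-29b-3p, so that separation stands without a share to compare it with. With 3 libraries against 3 an exact permutation test cannot go below p = 0.1, and no p is given for these ratios. The counting intervals of some libraries overlapped between groups, for example 6.19 to 8.10 in CCI-ION library 1 and 7.51 to 9.27 in sham library 1. That of CCI-ION library 3, at 5.31 to 7.29, lay below all 3 sham intervals, whose lowest bound was 7.47. miR-29c-5p per 1000 miR-29a-3p reads overlapped between groups, at 4.86, 4.04 and 3.76 in CCI-ION and 4.63, 5.11 and 4.64 in sham. Whether a read of 1 guide could be counted for the other at their differing base was not analysed here.

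**Figure D3:**
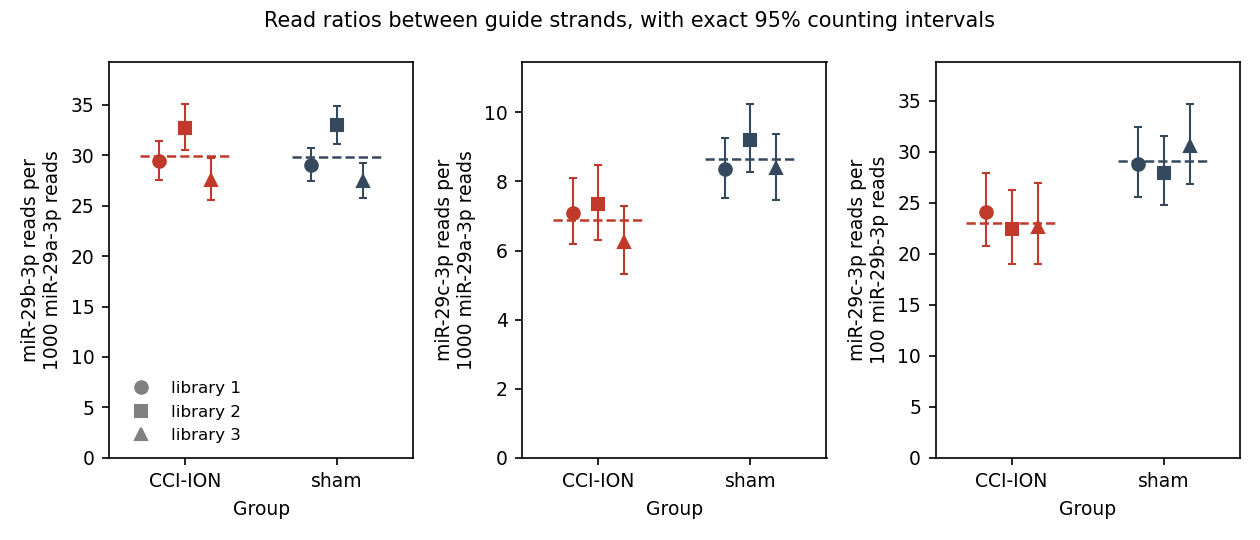
Reads of miR-29b-3p and miR-29c-3p per 1000 miR-29a-3p reads, and of miR-29c-3p per 100 miR-29b-3p reads, with CCI-ION at the left and sham at the right. Points are libraries with exact 95% counting intervals and dashed lines are group means; the miR-29b-3p ratio follows the library number in both groups, while miR-29c-3p lies lower in all 3 CCI-ION libraries.

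On the deposited RPM scale all 5 tested members lay further down in CCI-ION, as did the median miRNA. miR-29a-3p had 1289, 1801 and 1870 RPM in CCI-ION against 1798, 2466 and 2460 in sham, and miR-29b-3p had 38.0, 59.0 and 51.5 RPM in CCI-ION against 52.2, 81.3 and 67.5 in sham. Both were lower in 3 of 3 pairs, with overlapping groups. In edgeR with the totals behind the RPM, 393 of all 463 tested miRNAs (84.9%) had a negative log2 fold change. How many were lower in every pair on this scale was not counted. miR-29c-3p had 9.15, 13.2 and 11.7 RPM in CCI-ION against 15.03, 22.7 and 20.6 in sham, and miR-29c-5p had 6.27, 7.28 and 7.03 RPM in CCI-ION against 8.32, 12.6 and 11.4 in sham, both with no overlap. Of all 463 tested miRNAs, 136 (29.4%) were lower on this scale with no overlap. With the totals behind the RPM as library sizes edgeR called 0 of 5 members and 6 of 463 miRNAs (1.30%). With the replicate block added it called 4 of 5 members lower, against 152 of 463 (32.8%). Their log2 fold changes were -0.77 ± 0.18 for miR-29c-3p (edgeR adjusted p = 0.00172), -0.63 ± 0.20 for miR-29c-5p (0.0172), -0.44 ± 0.15 for miR-29a-3p (0.0275) and -0.44 ± 0.15 for miR-29b-3p (0.0276). The median of all miRNAs in that fit was -0.35, close to the miR-29a-3p and miR-29b-3p values. The share of miRNA reads in the total, given above, moved with this shift. Its part in the result was not tested.

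**Figure D4:**
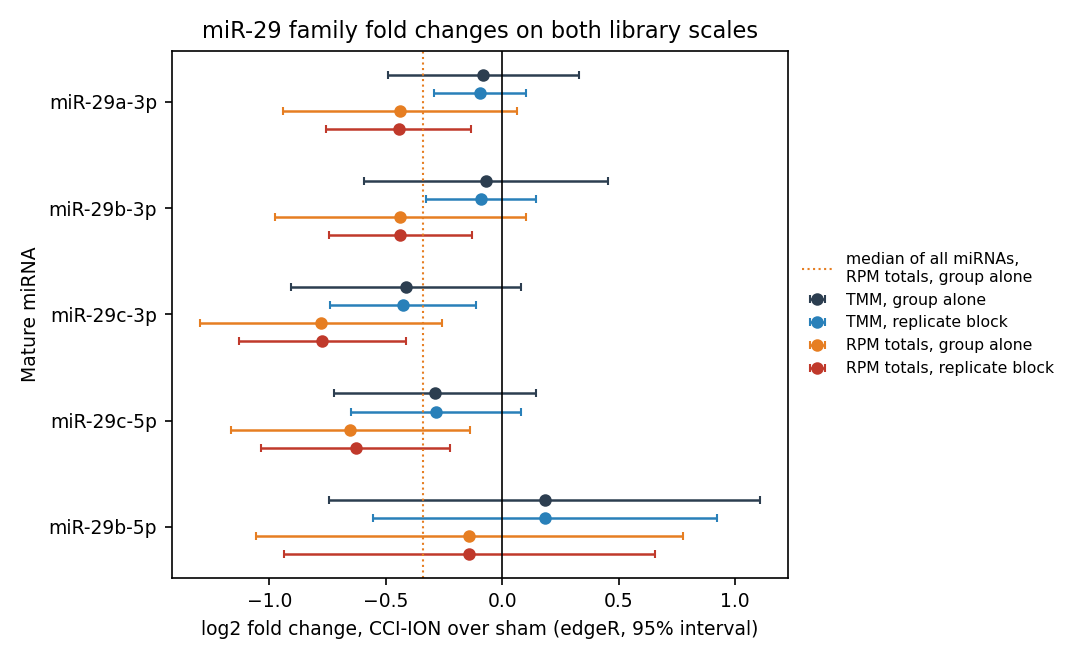
Log2 fold changes of CCI-ION over sham with 95% intervals for the 5 tested members, fitted in edgeR on the TMM scale and with the totals behind the RPM, each without and with the replicate block. The dotted line is the median of all miRNAs with RPM totals, at -0.34; the miR-29a-3p and miR-29b-3p values with RPM totals lie close to it, and the miR-29c values further left.

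The family as a whole held 0.296%, 0.411% and 0.348% of miRNA counts in CCI-ION libraries 1 to 3, against 0.359%, 0.388% and 0.385% in sham libraries 1 to 3. The groups overlapped, since CCI-ION held both the lowest and the highest share, and almost all of it is miR-29a-3p. Across the 6 libraries miR-29a-3p and miR-29b-3p varied together (Pearson r = 0.922 in log2 CPM), as did the strands of Mir29c (r = 0.968), while the correlation of miR-29c-3p with miR-29a-3p was 0.815. miR-29b-5p, at 6 to 28 reads, ran against the others, with r = -0.76 to miR-29a-3p, -0.63 to its own guide miR-29b-3p, -0.57 to miR-29c-3p and -0.45 to miR-29c-5p. These are descriptions over 6 libraries that share scaling and library number.

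Outside the family, the 325 tested miRNAs that averaged at least 10 CPM were ranked by Pearson correlation over the same 6 libraries. Closest to miR-29a-3p were miR-26b-5p (r = 0.988), miR-17-2-3p (0.986) and miR-20b-5p (0.982). Closest to miR-29b-3p were miR-148a-3p (0.993), miR-3559-5p (0.990) and miR-369-3p (0.986). miR-29c-3p had other neighbours, miR-136-3p (r = 0.999), miR-376b-5p (0.969) and miR-34a-5p (0.963), whose log2 fold changes were -0.42, -0.35 and -0.51, beside -0.41 for miR-29c-3p. These miRNAs were chosen by likeness over the same libraries, so their fold changes follow in part from the choice, and no test of them is read here.

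Other miRNAs tied to matrix genes, TGF-beta signalling or fibrosis moved in no common direction. This list and the marker lists below were chosen with earlier results of these data known, so their counts are descriptions. Of 21 listed and tested, edgeR called 0 without the block (3 at an unadjusted p below 0.05), with a median log2 fold change of 0.05 beside 0.01 over all tested miRNAs. With the block 3 were called higher and 2 lower, against 6.05% called higher and 5.62% called lower over all miRNAs. Those higher were miR-21-5p, which rises in many fibrotic tissues (5727 CPM in CCI-ION and 3077 in sham, log2 fold change 0.84 ± 0.11, edgeR adjusted p = 5.63e-08), miR-199a-5p of fibroblasts (1521 CPM in CCI-ION and 1110 in sham) and miR-155-5p of leukocytes (26.8 CPM in CCI-ION and 16.9 in sham). Those lower were miR-133a-3p of muscle, known in the heart to restrain connective tissue growth factor (49.5 CPM in CCI-ION and 76.8 in sham), and the p53 target miR-34a-5p (340.2 CPM in CCI-ION and 482.9 in sham). The adjusted p-values of these last 4 ran from 0.000115 to 0.00512 in edgeR with the block. The most abundant, miR-26a-5p (94743 CPM in CCI-ION and 92151 in sham) and miR-24-3p (14728 CPM in CCI-ION and 15156 in sham), were not called.

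Listed cell type markers were present, with no marker at 0 in all libraries. Of them miR-10b-5p (fibroblast and mural) and miR-219a-5p (myelinating glia) did not pass the count filter and were not tested. edgeR called none of the tested markers without the block. Markers given below as lower or higher with the block are those called by edgeR. Their counts stand against 5.62% of all tested miRNAs called lower and 6.05% called higher. The 3 sensory neuron markers, led by miR-182 and miR-183-5p, summed to 34693 to 45627 CPM in CCI-ION and 35127 to 44687 in sham. The 6 neuronal markers summed to 16991, 21541 and 20894 CPM in CCI-ION and 21162, 24025 and 24323 in sham, and 5 of the 6 were lower with the block (miR-218a-5p, miR-138-5p, miR-129-5p, miR-128-3p and miR-124-3p). The 5 skeletal muscle markers summed to 3342 to 8419 CPM in CCI-ION and 5198 to 10675 in sham, and miR-1b and miR-133a-3p were lower with the block. Skeletal muscle is not among the ganglion cell types named above, and the source of these reads was not tested. The 5 leukocyte markers summed to 284 to 331 CPM in CCI-ION and 222 to 266 in sham, and miR-142-3p and miR-155-5p were higher with the block. With the block 5 of the 6 neuronal markers and 2 of the 5 muscle markers were thus called lower. miR-29c-3p was not called in that fit (edgeR adjusted p = 0.0669). Without the block all 6 neuronal and all 5 muscle markers had negative log2 fold changes, none of them called. No sensory neuron marker was called, nor was miR-9a-5p, the remaining neuronal marker. The neuronal sums and the muscle sums each overlapped between groups. The part of these markers in the miR-29c-3p values was not tested. In whole ganglia fewer cells of a type and less RNA per cell cannot be told apart. The 6 fibroblast and mural markers, the cells most tied to collagen, summed to 26060 to 42438 CPM in CCI-ION and 25084 to 34870 in sham. With the block miR-199a-5p alone among the 5 of them tested was called higher. The sums of the glial markers, led by miR-204-5p and miR-338-3p (5412 to 6103 CPM in CCI-ION and 5245 to 5947 in sham), of the endothelial markers miR-126a-3p and miR-126a-5p (10952 to 15330 CPM in CCI-ION and 10373 to 14748 in sham) and of the erythroid markers, led by miR-486 and miR-451-5p (390 to 781 CPM in CCI-ION and 276 to 752 in sham), overlapped between groups, with no marker called on the TMM scale.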

How the data were processed

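The authors deposited raw counts for 650 mature miRNAs in 6 libraries, and 1 file of RPM values per library that equal those counts times 1 constant. Multiplied back, 100% of RPM values gave a whole read number within 0.01. Per the submitters' processing notes, cutadapt 1.14, Bowtie 1.1.1 and the build rn6 were used. The read counter, mismatches allowed and annotation were not given in the sources used here, and the labels name a TruSeq RNA kit without saying how small RNA was selected.

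Groups and replicate numbers come from the sample titles. Counts were tested over all miRNAs with edgeR 4.0.16 (quasi-likelihood, robust, TMM, filterByExpr, Benjamini-Hochberg threshold 0.05) in R 4.3.3. DESeq2 1.42.0 and limma 3.58.1 (voom) were alternatives. The fitting code was also run on counts simulated from its own fitted means and dispersions. This checks the code and not whether the model or the block suits these libraries. Same-numbered libraries correlated at 0.664, 0.591 and 0.457 in their deviations from the group means, and other combinations at -0.614 to 0.166, so the numbers were treated as pairs. Deviations within a group cancel out, so a positive correlation in 1 combination pushes others down, and this contrast is partly built in. Counting intervals are exact Clopper-Pearson (95%) and cover counting error only. A floor of 3 counts is 0.225 to 0.483 CPM. Members, marker lists and the rule for named miRNAs (all members, the 3 closest per guide by correlation, and called or else the 2 most abundant list members) were chosen with earlier results of these data known.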

Additional observations from a re-analysis of the deposited data

How the results depend on the processing

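Without the block, miRNAs called numbered 9 with DESeq2, 6 with the totals behind the RPM and 6 with no filter, against 3 in the reported fit, and 1 to 7 when single libraries were left out (1 without CCI-ION library 2 or 3 or sham library 2 or 3, 7 without CCI-ION library 1). With the replicate block the number was 54 (edgeR), 44 (DESeq2), 39 (limma-voom), 45, 31 and 5 without the libraries numbered 1, 2 and 3, and 158 with the totals behind the RPM. Called miR-29 members numbered 0 throughout, except 4 with the replicate block and the totals behind the RPM, where the log2 fold changes were -0.44 (miR-29a-3p), -0.44 (miR-29b-3p) and -0.77 (miR-29c-3p). Sign changes were confined to uncalled values. Upper quartile scaling gave 0.0017 for miR-29a-3p and 0.015 for miR-29b-3p. Leaving out single libraries gave -0.21 to 0.062 for miR-29a-3p, -0.28 to 0.085 for miR-29b-3p (0.085 without CCI-ION library 1 and 0.056 without sham library 2) and -0.14 to 0.45 for miR-29b-5p. For miR-29b-5p the replicate block without the libraries numbered 1 or 3 gave -0.050 and -0.066, and the totals behind the RPM gave -0.14 without and -0.14 with the block. The cause was not tested. With the replicate block DESeq2 and limma-voom gave miR-29c-3p adjusted p-values of 0.219 and 0.124, and over its alternatives these ran from 0.00172 to 0.995. Summing miR-29a-3p and miR-29c-3p gave -0.08. Leaving out single libraries moved the difference in miR-29c-3p per 1000 miR-29a-3p reads from -1.98 to -1.43 (CCI-ION minus sham, -1.76 with all), and that of miR-29b-3p from -1.29 to 1.70. The matrix and fibrosis list had 5 calls with the block and 0 without. The low counts of miR-29b-5p and miR-29a-5p limit what can be said of them.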

Other observations

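In the 3 sham libraries the ratio of the Mir29c strands lay close together, at 55.4, 55.5 and 55.4 miR-29c-5p reads per 100 miR-29c-3p reads, while their exact 95% counting intervals reach from 45.8 to 67.0. The CCI-ION libraries spread from 55.1 to 68.5. The correlation of miR-29c-3p with miR-136-3p over the 6 libraries (r = 0.999) was the closest of the 9 listed for the guides, although miR-136-3p comes from another locus and its level was 136.9 to 254.3 CPM.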
